A study of Mus musculus with 8 samples.

Results

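Some microRNA (miRNA) hairpins lie inside the genes of neurotransmitter receptors, and 4 of them make up the set described here: miR-346 in Grid1, miR-490 in Chrm2, and miR-224 and miR-452 in Gabre. The set holds 7 mature miRNAs of the 1915 that the files list: mmu-miR-346-5p, mmu-miR-346-3p, mmu-miR-490-3p, mmu-miR-490-5p, mmu-miR-224-5p, mmu-miR-224-3p and mmu-miR-452-5p. All 7 were listed in each library. They were chosen by host gene and also on the contrast between genotypes itself, since miR-346-5p, miR-490-3p and miR-224-5p were picked out for small unadjusted p-values in these same libraries. Their genotype differences are therefore given as a description and not tested.

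The libraries hold small RNA of prefrontal cortex, taken from 12-week-old mice on a C57BL/6 background. Wild-type mice gave 4 libraries (replicates 1, 2, 3 and 4) and mice labelled Fkbp5 Knockout gave 4 (replicates 1, 2, 4 and 5). Fkbp5 encodes a co-chaperone that lowers the hormone affinity of the glucocorticoid receptor, and the labels describe the allele no further. The assay does not read its messenger RNA, so the genotype labels cannot be checked here. In units of 1000000, library totals ran from 16.2 to 21.6, with 963 to 1033 miRNAs above 0. miRNAs that mark neural tissue were near the top, with miR-128-3p first, miR-9-5p second (rank 2) and miR-124-3p at rank 8 by mean level.

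A hairpin inside an intron is usually cut from the host transcript, after which the Dicer enzyme releases a duplex of a 5p and a 3p strand. As a rule 1 strand is loaded into an Argonaute protein and the other is degraded. The loaded strand finds messenger RNAs chiefly through its seed, bases 2 to 8. Grid1 encodes a glutamate receptor of the delta class that organizes synapses. Chrm2 encodes a muscarinic acetylcholine receptor, found on neurons and on heart and smooth muscle cells. Gabre encodes the epsilon subunit of the GABA-A receptor, the main inhibitory chloride channel of the brain.

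Each of the 7 had a mature sequence in RefSeq (GRCm38.p6), and those of miR-452-3p and the 4 hairpins were taken from the same table. The mature strands are shown first, since the strand decides which messenger RNAs a hairpin can bind. Capitals mark the seed.

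mmu-miR-346-5p: uGUCUGCCcgagugccugccucu
mmu-miR-346-3p: aGGCAGGGgcugggccugcagc
mmu-miR-490-5p: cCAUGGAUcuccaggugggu
mmu-miR-490-3p: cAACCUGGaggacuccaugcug
mmu-miR-224-5p: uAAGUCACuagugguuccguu
mmu-miR-224-3p: aAAUGGUGcccuagugacuaca
mmu-miR-452-5p: uGUUUGCAgaggaaacugagac

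No 2 of the 7 share a seed. Among the 1679 mature mouse names in that table, only 1 other carries the same bases 2 to 8 as a member: miR-7001-5p shares the seed of miR-346-3p, and it was listed at 0 in all 8 libraries. No other name in the table carries the seed of miR-346-5p, miR-490-3p or miR-224-5p, the members with the highest levels. The strands differ in base composition: miR-346-5p is 65.2% G or C, miR-490-3p 59.1% and miR-224-5p 42.9%. Values of different miRNAs depend on how well each sequence is ligated and copied, which was not measured here.

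The hairpins are shown next, because the results on arms turn on which side of each gave the higher values. Capitals mark the 5p and then the 3p strand, and all are written 5′ to 3′ in the direction of the host gene.

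Mir346: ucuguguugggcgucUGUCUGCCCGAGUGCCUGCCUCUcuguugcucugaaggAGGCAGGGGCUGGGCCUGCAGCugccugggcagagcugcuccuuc
Mir490: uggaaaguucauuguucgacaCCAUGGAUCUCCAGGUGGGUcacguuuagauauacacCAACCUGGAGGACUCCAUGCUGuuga
Mir224: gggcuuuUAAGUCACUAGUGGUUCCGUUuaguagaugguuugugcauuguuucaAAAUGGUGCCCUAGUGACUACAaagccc
Mir452: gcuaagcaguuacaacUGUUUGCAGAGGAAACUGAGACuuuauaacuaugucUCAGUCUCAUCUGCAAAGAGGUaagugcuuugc

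All 4 hairpins lie in introns, on the strand of the host (GRCm38, GENCODE M21), and no host transcript that spans them has an exon there. Introns are numbered in the coding transcript with the most exons. Mir346 is at chr14:34894609-34894706, in intron 2 of 15 of Grid1, an intron of 123044 bases. Mir490 is at chr6:36421742-36421825, in intron 2 of 2 of Chrm2, 32991 bases past the exon before it. Mir224 (chrX:72261031-72261112) and Mir452 (chrX:72262224-72262308) share intron 6 of 8 of Gabre, which is 3878 bases long. Mir452 comes first in the direction of transcription, 137 bases past the exon before it, and 1111 bases separate it from Mir224.

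Levels within the set ran from a mean of 2721 for miR-346-5p down to 0. Values were rescaled between libraries before they were compared, and a miRNA counted as tested if it reached 10 in at least 4 libraries. miR-346-5p was the abundant one, at rank 139 of the 1330 miRNAs with any value above 0. miR-490-3p was at rank 434, miR-224-5p at 469 and miR-490-5p at 648. miR-346-3p was at 1 in knockout replicate 2 and at 0 in the other libraries. miR-224-3p and miR-452-5p were listed at 0 in all 8, as was miR-452-3p, the other strand of the miR-452 hairpin. So 3 of the 7 passed the filter on low values and 4 did not.

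Down to miR-490-5p, each neighbour in this order but 1 was separated in every library. miR-346-5p exceeded miR-490-3p in 8 of 8 libraries and averaged 54.2 times its level. miR-490-3p and miR-224-5p lay close together, 1.35-fold apart on average, with ranges of 36.1 to 71.6 and 23.5 to 56.6 that overlap. miR-490-3p was the higher in 7 of the 8, the exception being wild-type replicate 1. miR-224-5p exceeded miR-490-5p in 8 of 8.

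The hairpins differed in which strand had the higher values. Ligation and copying can differ between the 5p and 3p sequences, so these values do not measure how much of each strand the cells kept. miR-346 and miR-224 gave almost nothing but the 5p strand, while miR-490 gave mostly 3p. As deposited, the values of miR-346-5p ran from 2307 to 3614 beside at most 1 for its 3p strand. Those of miR-224-5p ran from 23 to 68 beside 0. For miR-490 the 3p strand was at 50, 76, 49 and 66 in wild-type replicates 1 to 4 and the 5p strand at 8, 13, 3 and 6. In knockout replicates 1, 2, 4 and 5 the 3p strand was at 37, 45, 37 and 43 and the 5p strand at 1, 8, 5 and 12.

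The log2 ratio of 5p to 3p for miR-490, with 0.5 added to each, averaged -2.99 ± 0.91 (SD, n = 8), and it was below 0 in 8 of 8 libraries. Its range was wide, from -4.64 in knockout replicate 1 to -1.80 in knockout replicate 5. The 5p strand made up from 2.63% to 21.8% of the hairpin's values in those 2 libraries. Both strands are low, so a few units move this share. In a two-sided exact sign-flip test over the 8 libraries, the values of each of the 3 hairpins differed from an even split with p = 0.00781. The adjusted p over the 3 hairpins was also 0.00781 by this exact test. This is the smallest value that test can give, and it gives it whenever all 8 ratios share a sign. No ratio is given for miR-346 and miR-224, whose 3p strand is listed at 0 in 7 and 8 libraries, since the 0.5 added would set its size. For these hairpins the p-value says only that the 5p strand was the higher in 8 of 8 libraries. miR-452 had no value on either strand.

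**Figure D1:**
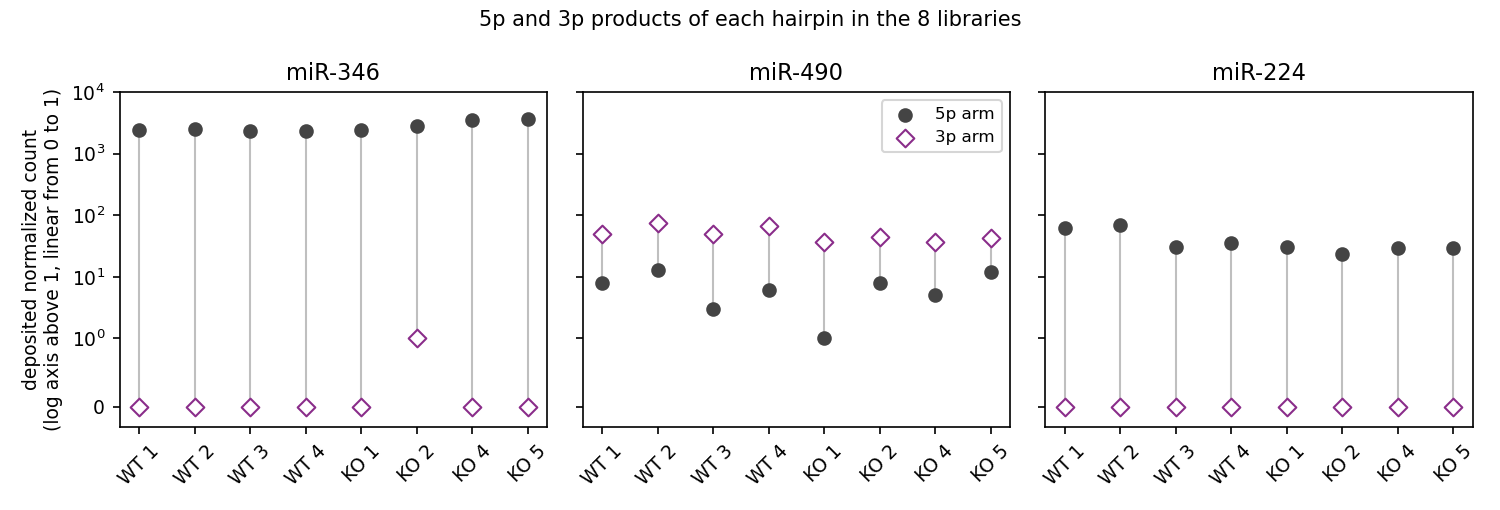
Deposited values (vertical axis, logarithmic above 1 and linear from 0 to 1) of the 5p strand (filled circles) and 3p strand (open diamonds) of miR-346, miR-490 and miR-224 in each library (horizontal axis). The 5p strand is above the 3p in 8 of 8 libraries for miR-346 and miR-224 and below it in 8 of 8 for miR-490.

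The genotype comparison asks whether these miRNAs differ when Fkbp5 is missing. Over the whole table, limma with Benjamini-Hochberg adjustment called 0 of 599 tested miRNAs at 0.05 (0%), with 25 at an unadjusted p under 0.05 (40 without wild-type replicate 3). Members are described below by the gene that holds them. The differences are on the scale of log2(value + 1), with the SE from that fit.

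miR-346-5p, from the glutamate receptor gene Grid1, had rescaled values of 2233, 2051, 2787 and 2504 in wild-type replicates 1 to 4. In knockout replicates 1, 2, 4 and 5 it was at 2756, 2853, 3404 and 3185. The groups met at 1 point, where wild-type replicate 3 lay just above knockout replicate 1, and the other 3 knockout libraries were above each wild-type library. The wild-type mean was 2394 ± 321 and the knockout mean 3049 ± 299 (SD, n = 4 each). The log2 difference was 0.35 ± 0.13 (SE), or 1.28-fold higher in the knockout.

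The deposited values of miR-346-5p looked different before rescaling. Wild-type libraries held 2406, 2487, 2335 and 2307, a narrow band, and knockout libraries 2400, 2789, 3492 and 3614. Knockout replicate 1 lay inside the wild-type band and replicates 4 and 5 far above it. As a share of the library it ran from 112.1 to 144.3 per 1000000 among wild-type libraries and from 135.4 to 183.8 among knockout libraries. The log2 difference was 0.35 in the values as deposited as well. With scaling by the upper quartile it was 0.41 and the groups did not overlap, with the highest wild-type library at 2707 and the lowest knockout library at 2869.

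miR-346-3p, the partner strand, gave no comparison, since its single unit was in knockout replicate 2.

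miR-490-3p, from the muscarinic receptor gene Chrm2, was at 46.4, 62.7, 58.5 and 71.6 in wild-type replicates 1 to 4. It was at 42.5, 46.0, 36.1 and 37.9 in knockout replicates 1, 2, 4 and 5. The groups did not overlap, but wild-type replicate 1 and knockout replicate 2 were almost level. The means were 59.8 ± 10.5 and 40.6 ± 4.51 (SD, n = 4 each), a log2 difference of -0.54 ± 0.19 (SE), or 1.45-fold lower in the knockout. Wild-type libraries were more spread than knockout libraries.

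miR-490-5p, the minor strand of the same hairpin, had values too low to tell whether it followed the 3p strand. Wild-type replicates 1 to 4 held 7.42, 10.7, 3.58 and 6.51, and knockout replicates 1, 2, 4 and 5 held 1.15, 8.18, 4.87 and 10.6. The groups overlapped over nearly their whole range, and the mean log2 difference of -0.34 turned to 0.16 without knockout replicate 1. It did not pass the filter, so the fit gives no SE for it.

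miR-224-5p, from the GABA-A receptor gene Gabre, was at 56.6, 56.1, 35.8 and 38.0 in wild-type replicates 1 to 4. It was at 34.4, 23.5, 28.3 and 25.6 in knockout replicates 1, 2, 4 and 5. Wild-type replicates 1 and 2 were high, while replicates 3 and 4 lay just above the highest knockout library. The means were 46.6 ± 11.3 and 27.9 ± 4.75 (SD, n = 4 each), a log2 difference of -0.70 ± 0.23 (SE), or 1.63-fold lower in the knockout. In the values as deposited, wild-type replicate 3 and knockout replicate 1 were both at 30.

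miR-224-3p and miR-452-5p were listed at 0 in both genotypes. The shared intron of Gabre thus gave a value for 1 of its 4 mature strands.

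Over the whole table the groups did not overlap with the knockout lower for 8 of 599 miRNAs (1.34%) and with the knockout higher for 4 (0.668%). Of the 3 tested members 2 were in the first class and 0 in the second, and because the contrast chose them nothing is read from this. Which members overlapped depended on the scaling. With upper quartile scaling miR-490-3p (lowest wild type 46.5, highest knockout 47.6) and miR-224-5p (34.8 and 35.9) overlapped. With equal library totals miR-490-3p overlapped (43.8 and 46.8) and miR-224-5p did not (34.8 and 31.8). The direction of the 3 differences was the same under each scaling, and nothing is read from this either.

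**Figure D2:**
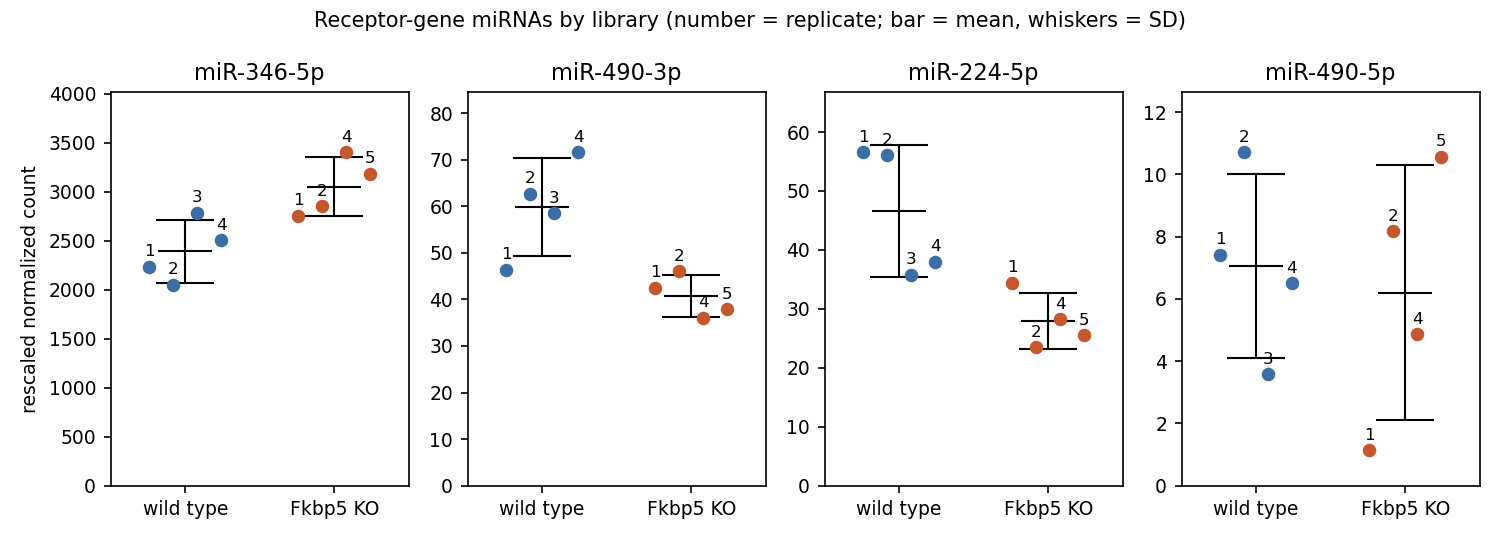
Rescaled normalized counts (vertical axes, from 0) of the 4 members with more than 1 unit, by genotype, with 1 point per library, replicate numbers beside the points, and the mean ± SD of each group. miR-346-5p runs from 2051 to 2787 for wild type and from 2756 to 3404 for the knockout, miR-490-3p and miR-224-5p are lower in the 4 knockout libraries, and miR-490-5p overlaps widely.

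**Figure D3:**
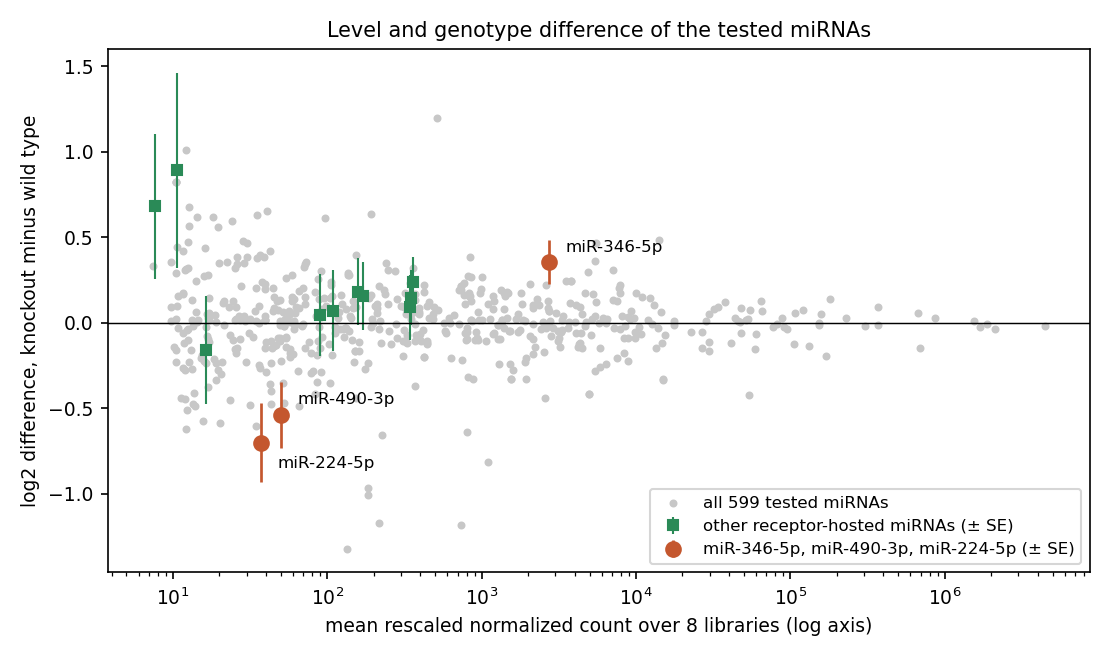
Mean level (horizontal axis, logarithmic) against log2 difference between knockout and wild type (vertical axis) for the 599 tested miRNAs (grey), the 3 tested members (orange circles) and 10 other miRNAs hosted by receptor genes (green squares), with bars of 1 SE. miR-490-3p and miR-224-5p lie among low miRNAs, where differences scatter more, and miR-346-5p lies among more abundant ones.

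In size, 13 of the 599 tested miRNAs, miR-224-5p included, had an absolute log2 difference at least as large as that of miR-224-5p. The number was 32 for miR-490-3p and 73 for miR-346-5p. The median absolute difference over all tested miRNAs was 0.11. Because this contrast chose the members, nothing is read from the size of their differences against the rest.

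The 3 tested members did not move as a group across libraries. Correlations are over log2 values of the same 8 libraries, which share their scaling and the genotype difference that chose the members, and are given as descriptions. miR-346-5p and miR-224-5p ran opposite to each other, with Pearson r = -0.89, and r = -0.71 after each genotype's mean was removed. After rescaling, wild-type replicates 1 and 2 were the lowest 2 libraries for miR-346-5p and the highest 2 for miR-224-5p. As deposited, miR-346-5p was at 2406 and 2487 in them, above the 2335 and 2307 of wild-type replicates 3 and 4. miR-490-3p and miR-224-5p, both lower in the knockout, had r = 0.52 over all libraries but -0.43 within genotypes.

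The miRNAs most alike each member were taken as the 3 of the other tested miRNAs with the highest r. For miR-346-5p these were miR-690 (r = 0.92), miR-671-3p (0.88) and miR-154-5p (0.87), which had r between 0.76 and 0.80 within genotypes. For miR-490-3p they were miR-210-3p (0.93), miR-542-3p (0.89) and miR-152-3p (0.88), with 0.60 to 0.80 within genotypes. For miR-224-5p they were miR-370-5p (0.84), miR-7021-5p (0.83) and miR-340-5p (0.82). miR-370-5p was nearly equal in both genotypes (log2 difference -0.05 ± 0.11) and had r = 0.94 with miR-224-5p within genotypes. Each set of 3 was picked as the highest of 598 values from 8 libraries.

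Other receptor genes host miRNAs too, and these place the members in context. By the GRCm38 annotation, 16 further listed names with a single locus fall in Htr2c (a serotonin receptor), Grm8 (a metabotropic glutamate receptor), Gabra3 (a GABA-A receptor subunit) or P2rx7 (an ATP-gated channel). Of the 16, 13 had a value above 0 and 10 were tested, 9 of them from Htr2c. limma called 0 of the 10. Their log2 differences ran from -0.16 to 0.89 with a median of 0.15, against a median of 0.01 over all tested miRNAs. The 10 are not separate results, since 9 share 1 host gene and the more abundant of those moved together across libraries (below). Nothing is therefore read from this median. For each of the 10 the groups overlapped. Over all 599 tested miRNAs they did not for only 1.34% (knockout lower) and 0.668% (knockout higher), so nothing is read from this.

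The strands of miR-1298, miR-448 and miR-1264 in Htr2c had higher mean levels than miR-490-3p and miR-224-5p. The other Htr2c miRNAs had lower ones, from 16.4 for miR-1912-3p through 10.6 for miR-764-5p, 9.47 for miR-764-3p and 7.64 for miR-3552 to miR-1912-5p, listed at 0 in each library. miR-1298-3p averaged 331.5 ± 60.0 (wild type) and 363.7 ± 38.8 (knockout; SD, n = 4 each). On the same footing miR-448-3p averaged 162.4 ± 32.0 and 180.7 ± 35.6, and miR-1264-5p 104.7 ± 23.9 and 111.6 ± 32.4. miR-592-5p of Grm8 averaged 331.9 ± 61.5 and 386.8 ± 13.6, a log2 difference of 0.24 ± 0.15. The Gabra3 miRNAs resembled miR-452 of Gabre, with miR-105 listed at 0 throughout and miR-767 at 1 in a single library.

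The share of each strand in the values varied among the receptor-hosted hairpins. In miR-1264, miR-1298 and miR-448 both strands had nearly equal values, with a median 5p share of 54.6%, 48.5% and 48.4%. The miR-592 hairpin was one-sided like miR-346, with a median 5p share of 99.4%. Over libraries the 5p share ran from 44.1% to 58.1% in those 3 Htr2c hairpins, above the range of miR-490 (2.63% to 21.8%) and below those of miR-346 (at least 99.96%) and miR-224 (100%). The other Htr2c hairpins were low. In miR-764 the 5p share ran from 11.1% to 90%, a range that meets that of miR-490, and miR-1912 had deposited values of 8 to 25 for its 3p strand beside 0 for its 5p strand.

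Htr2c miRNAs also moved together across libraries (here too correlations are descriptions). Over 15 pairs of the 6 with a mean of at least 20, the median r was 0.82, and 0.80 within genotypes. Their summed level was 1288, 1340, 847.3 and 1211 in wild-type replicates 1 to 4 and 1006, 1324, 1378 and 1366 in knockout replicates 1, 2, 4 and 5. Wild-type replicate 3 and knockout replicate 1 were the low ones. The sum had r = -0.07 with miR-224-5p, r = -0.30 with miR-490-3p and a value still nearer 0 with miR-346-5p.

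**Figure D4:**
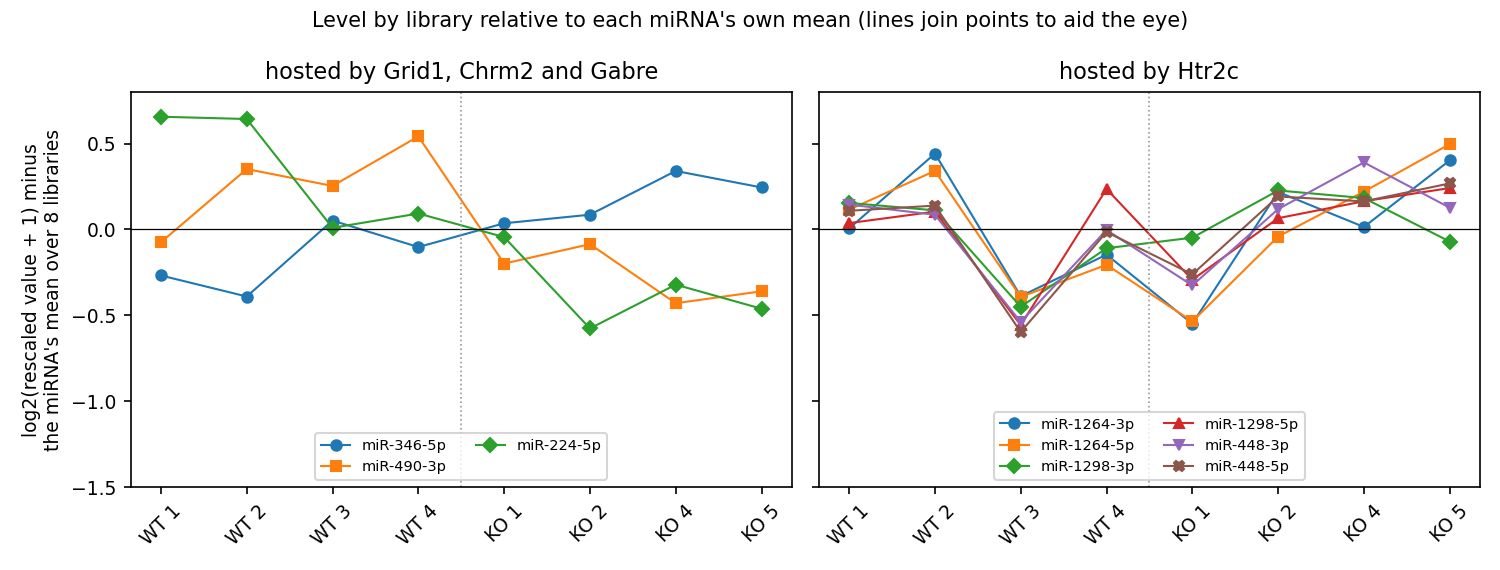
Level in each library (horizontal axis) relative to the miRNA's own mean over 8 libraries (vertical axis, log2), for the 3 tested members (left) and the 6 Htr2c miRNAs with a mean of at least 20 (right); lines join the points of 1 miRNA. In wild-type replicate 3 and knockout replicate 1 the Htr2c miRNAs are below their own means in 6 of 6 cases, and among their own lowest 2 libraries in 6 and 5 of 6, while the members follow 3 separate courses.

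Tissue is a mixture, and fewer cells of a type cannot be told apart from less of a miRNA per cell. Markers of 8 cell classes were summed by library. The smooth muscle and fibroblast sum ran with miR-490-3p and opposite to miR-346-5p. Of that list 5 of 5 miRNAs were above 0 in each library, 5 of 5 had a negative log2 difference, and 0 were called. miR-143-3p, abundant in smooth muscle, made up most of the sum. The sum of the 5 was 64617, 83585, 65165 and 68233 in wild-type replicates 1 to 4. It was 51234, 72404, 42975 and 48588 in knockout replicates 1, 2, 4 and 5.

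Across the 8 libraries that sum had r = 0.80 with miR-490-3p, -0.81 with miR-346-5p and 0.52 with miR-224-5p. This r and those of the other lists include the genotype difference that chose the members. They were not taken within genotypes. The knockout library with the highest sum, replicate 2, was also the highest of the knockout libraries for miR-490-3p. In that library miR-224-5p was at 23.5 and miR-346-5p at 2853. For the 3 members the part of smooth muscle or fibroblasts in the result was not tested.

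Other classes moved with miR-224-5p. The choroid plexus and ependyma sum (r = 0.69) was highest in wild-type replicates 1 and 2, at 11809 and 9373, and ran from 7641 to 8289 in the other 6 libraries. miR-204-5p, abundant in choroid plexus, made up most of it at a mean of 8336, and 3 of 4 tested miRNAs of the list had a negative log2 difference, the exception being miR-34c-5p (0.10). The oligodendrocyte list (r = 0.64) had a negative log2 difference for 4 of 4 miRNAs, with wild-type sums of 20907 to 31106 and knockout sums of 19932 to 25092. Of these lists 6 of 6 and 4 of 4 miRNAs were above 0 in each library, and 0 were called. The neuron sum ran from 6218530 to 8042170 among wild-type libraries and from 6407080 to 8183840 among knockout libraries, and its r with the 3 members lay between -0.07 and 0.17. Sums of the red blood cell list ran opposite to miR-224-5p (r = -0.66), with 3042 to 5251 for wild type and 3795 to 4878 for the knockout. miR-486a-5p made up most of that sum, at a mean of 3788, and had a log2 difference of 0.25. The other 2 of the 3 miRNAs, miR-451a and miR-144-3p, had negative ones (-0.11 and -0.24), and 0 were called. The endothelium sum had r = 0.55 with miR-490-3p and -0.51 with miR-346-5p, with 17455 to 24012 for wild type and 17030 to 20015 for the knockout. The olfactory and epithelial list had a negative log2 difference for 7 of 7 tested miRNAs, with a median of -0.96, and 0 were called. Its sums overlapped, at 1733 to 6094 for wild type and 962.3 to 6021 for the knockout, and had r between -0.28 and 0.34 with the members. The microglia and leukocyte list had a negative difference for 2 of 4 and r between -0.42 and 0.10 with the members. Most of its sum was miR-150-5p, at a mean of 9973 and with a log2 difference of 0.17. The part of each of these lists in the members' results was not tested.

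**Figure D5:**
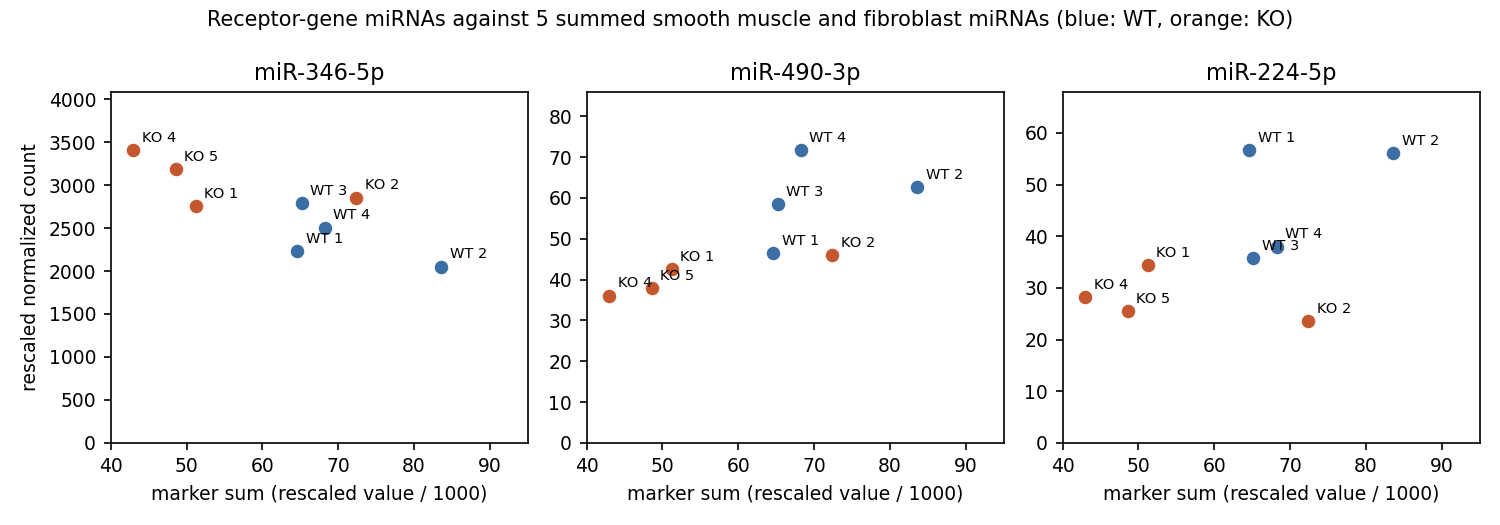
Rescaled normalized count of each tested member (vertical axes, from 0) against the summed rescaled values of 5 smooth muscle and fibroblast miRNAs (horizontal axes, divided by 1000), with 1 point per library. Knockout replicates 1, 4 and 5 have sums of 42975 to 51234, below the other 5 libraries, and knockout replicate 2 lies among the wild type on the horizontal axis.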

How the data were processed

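Each deposited file gives 1 value per mature miRNA. Per the file headers the authors call the values normalized counts, which is why each deposited value was treated as a score without a fixed unit and no count model was used. All were whole numbers (0 differed from their rounded value), and how the authors normalized them is not given in the sources used here. Per the submitters' processing notes HTSeq 0.6.1p1, Bowtie 1.1.2, cutadapt 1.11 and edgeR were used, on mm10. Because the values are not labelled as reads, no counting interval is given.

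Libraries were rescaled by an unweighted trimmed mean of log ratios (30% of ratios and 5% of levels trimmed at each end; factors 0.838 to 1.21). A miRNA was tested if, scaled to the median library, it reached 10 in at least 4 libraries, with a total of at least 15. That left 599. Genotypes were compared on log2(value + 1) in R 4.3.3 with limma 3.58.1 (mean-variance trend, Benjamini-Hochberg at 0.05), after the procedure was tested on simulated data. That check set limits only on the recovery of large changes and on false calls. It does not tell whether changes as small as those of the members would be called. Arms were compared by a two-sided exact sign-flip test over 256 arrangements. The labels do not name the animal behind a library, so a p-value here measures only the spread among the libraries, which may be technical.

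The members, the marker lists, the host families and the rule for named miRNAs (members, receptor-hosted miRNAs, and the 3 most correlated with each tested member) were chosen with earlier results of these data known. Host genes were taken by symbol family, on the same strand, and miR-692, encoded at several loci, was left out; 1 further item is not reported here. Of the 1915 names, 1623 had a RefSeq sequence. Alternatives were other scalings, filters, pseudocounts, no trend, a replicate block and the omission of each library.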

Additional observations from a re-analysis of the deposited data

Results flagged for a closer look

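Among 48 groups of libraries examined, 4 held 1 library far from the rest of its group, where chance gives about 1 in 20, or 2.4. In the knockout group miR-346-3p was at 1.02 in replicate 2 and at 0 in the others, a single unit in the file. Knockout replicate 1 held 5.74 of miR-3552, an Htr2c-hosted miRNA, against 10.2 to 10.7 in the other knockout libraries. For miR-7021-5p, named as alike miR-224-5p, knockout replicate 1 was at 17.2 and the others at 8.77 to 9.69. For miR-340-5p, named for the same reason, knockout replicate 2 was at 7088 and the others at 8447 to 8597.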

How the results depend on the processing

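The differences of miR-346-5p, miR-490-3p and miR-224-5p kept their direction in all 17, 16 and 16 alternatives run, and moved by less than the spread between libraries. With 1 library left out they ran from 0.28 to 0.44, from -0.65 to -0.45 and from -0.81 to -0.59. That of miR-490-5p turned from -0.34 to 0.16 without knockout replicate 1. Nothing is read from the direction that miR-346-5p, miR-490-3p and miR-224-5p kept, since they were picked for small unadjusted p-values in these same libraries. The ratio of 5p to 3p values kept its direction and its side of the threshold in 10 of 10 alternatives for each hairpin. Because all 8 libraries share a direction in each hairpin, none of these alternatives could have changed either. limma's count of 0 called was 0 in 16 alternatives and 7 under a replicate block on numbers 1, 2 and 4 (6 libraries, 0 without the block), with 0 members and 5 olfactory and epithelial markers among the 7. The labels do not say that the numbers pair libraries, correlations within a number were only 0.0652, -0.0385 and 0.132, and in 0 of 3 cases was this the best match. The 25 with an unadjusted p under 0.05 became 9 in the values as deposited, 51 with no filter, 14 at 10 per 1000000, 49 under the block (42 in the same 6 libraries without it) and 40 without wild-type replicate 3; the filters change how many are tested and the block how many libraries enter, and for the others the cause was not tested. miR-490-3p and miR-224-5p did not reach the stricter filter. Low values limit both, at 23 to 76 units a library.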
